A study of Mus musculus with 39 samples.

Results

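Respiratory complex I, the NADH:ubiquinone oxidoreductase of the inner mitochondrial membrane, was followed here through 35 nuclear genes that encode its subunits, chosen by symbol from a list of Nduf genes and mapped to their Ensembl identifiers. They are 35 of 55573 genes in the count files, and all 35 were among the 18394 genes expressed highly enough to be tested. The libraries came from distal sciatic nerve endoneuria, the compartment of axons, Schwann cells, fibroblasts and macrophages inside a nerve, of C57BL/6 mice 2 to 4 months old and of both sexes, taken at 2 or 4 weeks post-crush (wpc). All mice carried the floxed leptin receptor gene (Leprfl/fl), alone in Lepr-ctrl mice and with Dhh-Cre in Lepr-cKO mice, where recombination starts in the Schwann cell lineage during embryogenesis and removes exon 1 of Lepr, so that a truncated receptor is still made. Healthy nerves were the contralateral ones of crushed mice, and no nerve of an unoperated mouse was analysed here. The study asked how endoneurial transcripts respond to injury and whether this response depends on the leptin receptor of Schwann cells.

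In all, 39 libraries fell into 8 groups. At 2 wpc there were 5 healthy and 5 injured nerves of Lepr-ctrl mice and 6 healthy and 5 injured nerves of Lepr-cKO mice, while at 4 wpc each genotype had 5 healthy and 4 injured nerves. Library totals lay between 10905806 and 45016322 counts, and no member fell below 50 counts in any library of the fit. The skeletal muscle genes summed to 52454 CPM (counts scaled to a common library size) in the Lepr-cKO injured library of mouse SLRKO2wpc126 at 2 wpc against at most 47.9 CPM in the other 38, and this library was therefore left out of the fit and is described apart. Mice are named as in the sample titles, with WT for Lepr-ctrl and KO for Lepr-cKO mice at 4 wpc and with the prefix SLRKO2wpc for both genotypes at 2 wpc. The 12 comparisons below rest on 38 libraries, with 4 in the Lepr-cKO injured group at 2 wpc. Lepr itself ranged from 5.83 to 14.7 CPM in healthy and from 20.6 to 122.8 CPM in injured nerves, and it was not called between genotypes in any of the 4 conditions (log2 fold changes -0.55 to 0.45, adjusted p 0.335 to 1 in edgeR's quasi-likelihood test), although gene-level counts do not check the deletion of a single exon.

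Complex I takes electrons from NADH, hands them through flavin and iron-sulfur clusters to ubiquinone, and pumps protons across the inner membrane. Its matrix arm holds the electron path, built from nuclear-encoded core subunits and accessory subunits, while the proton-pumping core of its membrane arm is encoded by mitochondrial DNA and is surrounded by nuclear-encoded accessory subunits that are needed for assembly and stability. A complete complex contains each core subunit once. In Schwann cells, loss of mitochondrial respiration is known to cause neuropathy, and complex I deficiency is among the most frequent causes of inherited mitochondrial disease. The 35 members comprised 6 core subunits of the matrix arm, 9 accessory subunits of the matrix arm, 9 of the proximal and 10 of the distal membrane arm, and the acyl carrier protein Ndufab1, which is bound in both arms. They lie on 15 chromosomes, with Ndufa1 and Ndufb11 on the X chromosome.

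To show where members that moved in opposite directions start, the 250 bases upstream of the annotated start are printed below for Ndufa1, the member with the largest rise after injury, and for Ndufv1, the member that was lower in the injured nerve of every mouse. Ndufa8 and Ndufb7 are added because they were called higher in all injury comparisons and their windows hold a searched motif. Sequences are from RefSeq on GRCm38.p6, written 5′ to 3′ on the strand of the gene in lower case, with motif letters in capitals (none in Ndufa1 and Ndufv1). The windows are chrX:37191239-37191488 on the minus strand, chr19:4012756-4013005 on the minus strand, chr2:36049339-36049588 on the minus strand and chr8:83566508-83566757 on the plus strand, respectively.
Ndufa1: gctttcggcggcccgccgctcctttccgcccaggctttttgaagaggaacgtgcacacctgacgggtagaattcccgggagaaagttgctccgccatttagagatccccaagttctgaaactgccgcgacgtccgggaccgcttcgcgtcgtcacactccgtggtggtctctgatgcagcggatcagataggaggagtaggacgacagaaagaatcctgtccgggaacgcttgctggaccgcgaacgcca
Ndufv1: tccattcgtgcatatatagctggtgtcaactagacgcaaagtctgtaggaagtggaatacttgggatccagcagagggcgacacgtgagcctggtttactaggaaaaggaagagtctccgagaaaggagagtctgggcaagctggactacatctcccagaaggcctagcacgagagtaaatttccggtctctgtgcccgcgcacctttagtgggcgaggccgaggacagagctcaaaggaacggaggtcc
Ndufa8: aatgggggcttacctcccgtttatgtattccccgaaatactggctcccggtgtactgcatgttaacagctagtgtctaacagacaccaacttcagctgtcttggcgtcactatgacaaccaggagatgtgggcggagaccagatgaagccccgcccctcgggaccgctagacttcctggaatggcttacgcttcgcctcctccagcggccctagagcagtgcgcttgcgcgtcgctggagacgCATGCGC
Ndufb7: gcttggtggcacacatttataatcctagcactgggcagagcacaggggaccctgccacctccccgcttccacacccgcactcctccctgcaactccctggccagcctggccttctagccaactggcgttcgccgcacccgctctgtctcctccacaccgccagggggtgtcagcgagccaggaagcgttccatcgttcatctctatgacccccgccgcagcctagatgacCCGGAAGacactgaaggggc

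Of the 35 members, 32 had a promoter entry (Ndufa2, Ndufb9 and Ndufs1 had none), and 2 of them had 2 windows each. The windows were searched on both strands for 4 short motifs of factors known to act on mitochondrial genes. GCGCATG, part of the NRF1 site, was found upstream of 4 of 32 members (Ndufa6, Ndufa8, Ndufa11 and Ndufb6) and in 3.24% of all 32851 promoters. CCGGAAG, an ETS core, occurred upstream of 3 members (Ndufb6, Ndufb7 and Ndufs3) and in 6.91% of all promoters. The estrogen-related receptor element AAGGTCA stood upstream of Ndufb2, Ndufb4 and Ndufs5, 3 members, and in 4.08% of all promoters, while the YY1 letters AAGATGG were in no member window and in 4.49% of all promoters. In Ndufa8 the NRF1 letters, read on the opposite strand, begin 7 bases before the RefSeq start, and in Ndufb7 the ETS letters begin 20 bases before it. The GENCODE annotation used for gene symbols starts these genes farther out, at chr2:36049406 and chr8:83566671. By GENCODE both motifs therefore lie inside the gene. The motifs do not overlap one another in these windows, and the palindromic extension of the NRF1 letters let it match on both strands in Ndufa11.

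At the level of transcripts, the members spanned a wide range in healthy nerves. Expressed per length of the principal transcript, as RPKM (CPM divided by the length in kilobases), Ndufa13 (109 ± 12.4, SD, n = 21 healthy libraries) and Ndufa6 (108 ± 8.69) were highest and did not differ beyond their spread, and Ndufab1 (5.70), Ndufb4 (4.28) and Ndufb2 (3.0 ± 0.389) were lowest. In the 17 injured libraries Ndufa2 (174 ± 32.4) stood first, followed by Ndufa6 (140 ± 19.99) and Ndufa7 (131.2). Ndufa1 moved from rank 16 to rank 7 (46.4 to 111 RPKM), and Ndufv1 moved from rank 14 to rank 21 (54.4 to 43.6 RPKM). This order depends on the length used, since Ndufb7 ranked 6 by the principal transcript and 28 by the union of all its exons.

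Does injury move the subunits of the complex together? At 2 wpc the members moved in both directions. In Lepr-ctrl nerves 15 of 35 members were called higher (35.1% of all genes tested were) and 6 lower (30.7%) at an adjusted p under 0.05, with a median log2 fold change of 0.19 over the members against 0.09 over all genes. In Lepr-cKO nerves, again, 15 members were called higher (35.4% of all genes) and 6 lower (29.6%), with medians of 0.17 and 0.08. At 4 wpc the balance had moved upwards, with 27 members called higher (32.7% of all genes) and 1 lower (32.3%) in Lepr-ctrl nerves and a median of 0.39 against 0.01. In Lepr-cKO nerves 21 members were called higher (30.2%) and none lower (27.1%), with a median of 0.33 against 0.05. None was lower at an unadjusted p under 0.05 either (29.2% of all genes). DESeq2 called 23 members, none of them lower, and 58.9% of all genes in either direction. The share of members called lower was thus below that of all genes at both times. The share called higher was above it, by more at 4 wpc than at 2 wpc. At 2 wpc some other fits called fewer members higher. With nerves paired by mouse, 11 of 35 members were called higher in each genotype. In either direction that fit called 15 (Lepr-ctrl) and 16 (Lepr-cKO) members, and 60.7% and 61% of all genes. Its share of all genes called higher alone is not given here. Leaving out 1 library gave as few as 11 (Lepr-ctrl) and 10 (Lepr-cKO) members called higher. The changes were small, because with an absolute log2 fold change above 1 as a further condition 1, 1, 3 and 1 members remained higher (20.3%, 20.3%, 20.1% and 17% of all genes) and none lower (14.3%, 14.3%, 16.3% and 11.2%), in the order Lepr-ctrl and Lepr-cKO at 2 wpc, Lepr-ctrl and Lepr-cKO at 4 wpc. In the same order, 26, 26, 30 and 29 of 35 members had an estimate above 0 (74.3%, 74.3%, 85.7% and 82.9%, against 53.5%, 53.7%, 50.6% and 52.4% of all genes). All injured values lay above all healthy ones for 7, 9, 20 and 10 members (24.2%, 24.4%, 27.2% and 20.8% of all genes) and below them for 3, 6, 1 and 0 members (23.8%, 23.7%, 27.9% and 21.3%).

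**Figure D1:**
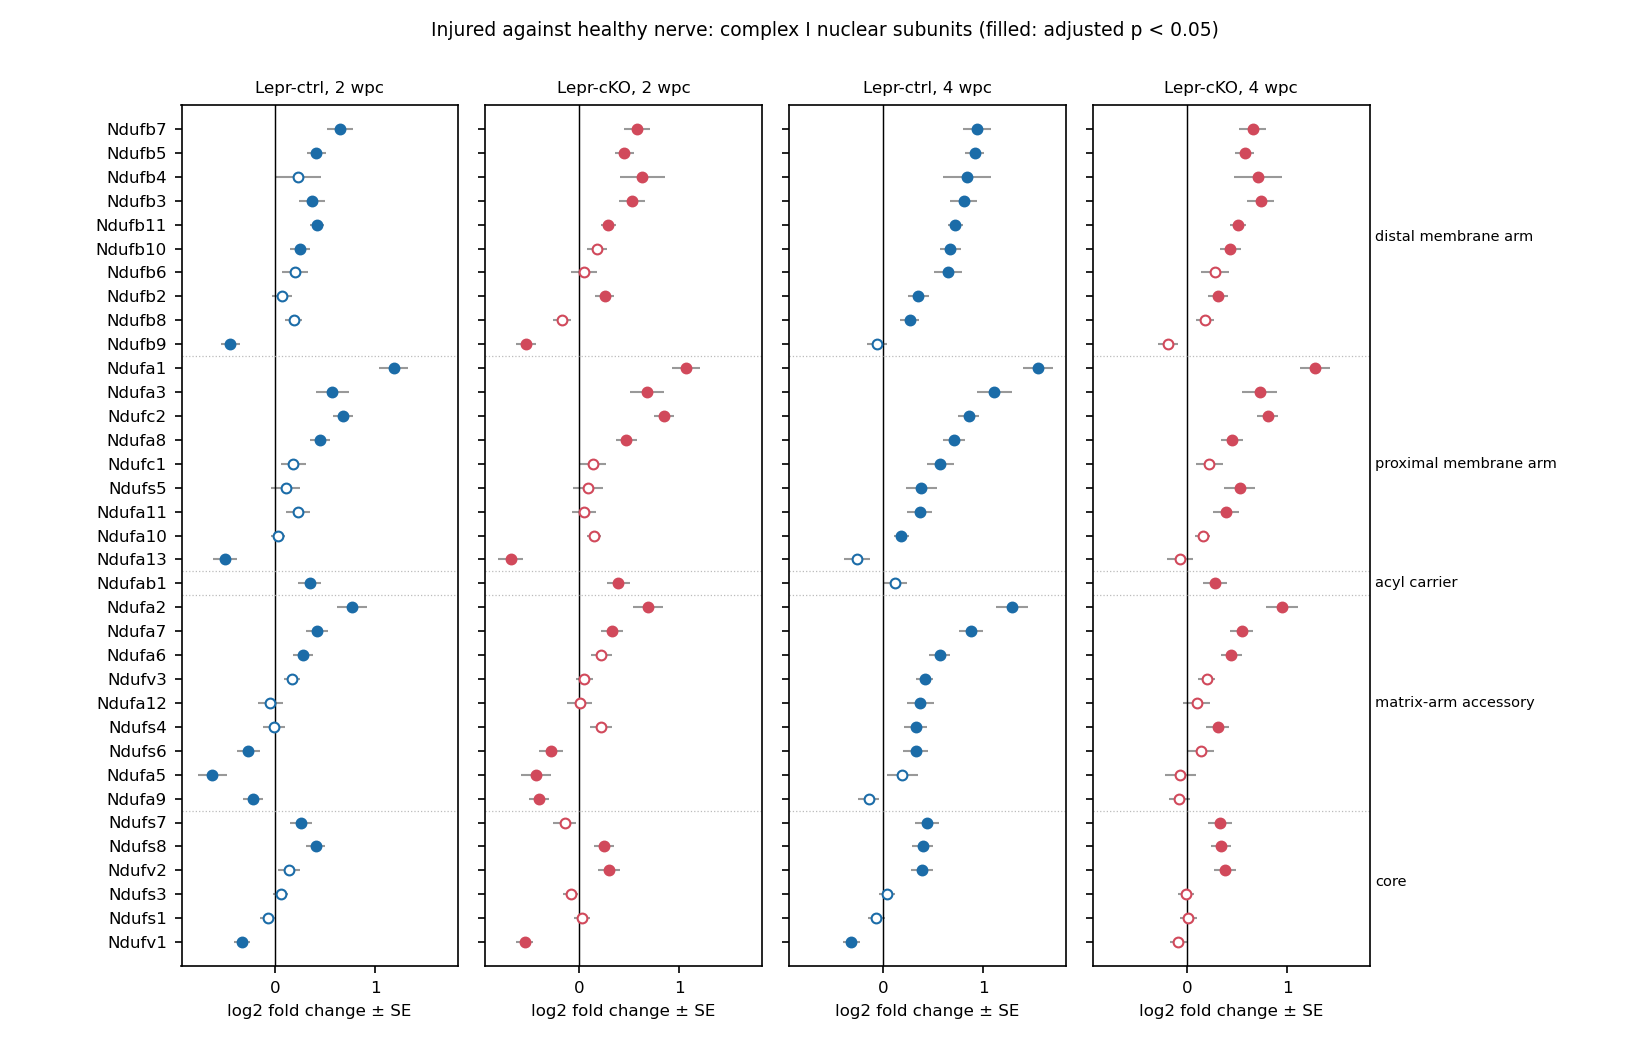
Log2 fold change of each member in injured against healthy nerves (x axis, with SE bars) in the 4 comparisons of genotype and time, grouped by position in the complex on the y axis, with filled points for members called at an adjusted p under 0.05. Most points of the membrane arm lie right of 0 at 4 wpc, whereas Ndufa5, Ndufa13, Ndufb9 and Ndufv1 lie left of 0 at 2 wpc.

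The genotypes shared most of their called members, as they did over all genes. At 2 wpc, 12 of the 15 members called higher in Lepr-ctrl nerves were among the 15 called higher in Lepr-cKO nerves (over all genes, 87.1% of the Lepr-ctrl calls and 86.3% of the Lepr-cKO calls were shared), and the 6 members called lower were the same 6 in both (85.7% and 88.8% of the calls over all genes). At 4 wpc, 20 of the 27 members called higher in Lepr-ctrl nerves were among the 21 of Lepr-cKO nerves (79.9% and 86.4% over all genes), Ndufab1 being the one called in Lepr-cKO nerves alone. Over the 4 comparisons, 11 members were called higher every time (21.8% of all genes were), 28 at least once (45.3%) and 6 lower at least once (40.6%), while Ndufs1 and Ndufs3 were never called (15.2%). Of the 11, all but Ndufa3, Ndufb3 and Ndufs8 were called in all 4 comparisons under every alternative processing run here other than the fold condition, and these 8 were Ndufa1, Ndufa2, Ndufa7, Ndufa8, Ndufb5, Ndufb7, Ndufb11 and Ndufc2.

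Libraries of injured nerves also differed from healthy ones in their cellular makeup, as far as marker transcripts show it. The summed macrophage markers (8 genes) rose from 78.3 to 243 CPM across healthy libraries to 677 to 2298 CPM across injured ones, while the summed myelin genes fell from 80810 to 116028 CPM to 10078 to 73820 CPM. Schwann cell markers lay at 4455 to 5220 CPM in healthy and 1855 to 5005 CPM in injured libraries, the mitochondrially encoded share of counts at 1.92 to 4.25% and 2.95 to 33%, and proliferation markers at 3.48 to 11.5 CPM and 6.91 to 166 CPM. The endothelial markers summed to 165 to 333 CPM in healthy and 217 to 1283 CPM in injured nerves, and the adipocyte markers to 8.98 to 95.1 CPM and 16.7 to 151 CPM. Fibroblast markers overlapped, with 4161 to 8651 CPM and 2713 to 10491 CPM, as did those of erythrocytes, with 7.4 to 119 CPM and 0.881 to 111 CPM. The part of these shifts in the changes of the members was not tested, and in bulk tissue fewer cells of a type and less RNA per cell cannot be told apart.

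Among the accessory subunits of the proximal membrane arm, 4 of 9 members were called higher and 1 lower in Lepr-ctrl nerves at 2 wpc. The same counts held in Lepr-cKO nerves. Over all genes, 35.1% and 30.7% were called higher and lower in Lepr-ctrl nerves, and 35.4% and 29.6% in Lepr-cKO nerves. At 4 wpc 8 and 6 of 9 rose (32.7% and 30.2% of all genes) and none fell (32.3% and 27.1%), with medians of 0.57 and 0.45. Ndufa1, a small single-span subunit required for assembly of the membrane arm, led this group and the nuclear members as a whole. In Lepr-ctrl mice at 2 wpc it measured 22.8, 20.9, 19.8, 20.2 and 21.96 CPM in healthy and 29.3, 57.5, 56.5, 46.2 and 50.3 CPM in injured nerves. The lowest of these injured values, from mouse SLRKO2wpc123, was still above every healthy one. In Lepr-cKO mice at 2 wpc it ran from 20.5 to 24.8 with a median of 21.98 CPM in 6 healthy nerves and stood at 44.3, 52.8, 40.0 and 49.8 CPM in injured ones. At 4 wpc it measured 19.4, 13.9, 14.7, 18.3 and 17.98 CPM in healthy and 45.3, 51.0, 57.6 and 43.4 CPM in injured nerves of Lepr-ctrl mice, and 16.5, 15.8, 14.9, 20.1 and 16.7 against 29.8, 54.4, 38.6 and 40.5 CPM in Lepr-cKO mice. Healthy and injured values did not overlap in any of the 4 comparisons. The log2 fold changes were 1.18 ± 0.14 (SE), adjusted p = 6.81e-09, and 1.06 ± 0.14 (SE), adjusted p = 5.05e-08, at 2 wpc, and 1.55 ± 0.15 (SE), adjusted p = 8.5e-11, and 1.28 ± 0.15 (SE), adjusted p = 9.15e-09, at 4 wpc, each time for Lepr-ctrl before Lepr-cKO.

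Ndufc2, another accessory subunit of the proximal membrane arm, rose in an almost uniform way. It measured 38.1, 30.0, 34.8, 32.1 and 31.8 CPM in healthy and 45.5, 57.3, 53.2, 56.2 and 55.1 CPM in injured Lepr-ctrl nerves at 2 wpc, and 31.0 to 40.5 with a median of 32.4 CPM in healthy and 65.3, 52.3, 50.2 and 76.2 CPM in injured Lepr-cKO nerves. The values at 4 wpc came to 28.2, 24.4, 24.6, 25.4 and 24.5 against 46.1, 47.9, 48.3 and 41.5 CPM, and 23.7, 24.2, 23.5, 29.1 and 28.1 against 39.5, 46.9, 48.4 and 45.2 CPM. No injured library reached down to the healthy ones of its comparison. In order, the log2 fold changes were 0.68 ± 0.10, 0.85 ± 0.10, 0.85 ± 0.11 and 0.81 ± 0.11 (SE), with adjusted p of 3.87e-07, 5.49e-09, 1.66e-08 and 8.99e-08.

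In the same arm, Ndufa3, a single-span accessory subunit, measured 44.8, 42.0, 38.5, 41.7 and 43.3 CPM in healthy and 34.1, 57.4, 88.4, 74.3 and 57.7 CPM in injured Lepr-ctrl nerves at 2 wpc, and 39.7 to 46.7 with a median of 44.1 CPM against 69.9, 72.1, 52.0 and 87.0 CPM in Lepr-cKO nerves. By 4 wpc the counts were 37.4, 32.1, 26.6, 37.4 and 37.4 CPM against 75.7, 78.7, 79.7 and 61.1 CPM in Lepr-ctrl mice, and 36.0, 33.4, 30.5, 41.0 and 36.5 CPM against 37.6, 79.0, 60.6 and 57.7 CPM in Lepr-cKO mice. Groups were apart in Lepr-cKO mice at 2 wpc and in Lepr-ctrl mice at 4 wpc and overlapped in the other two comparisons. Log2 fold changes were 0.57 ± 0.17, 0.68 ± 0.17, 1.11 ± 0.18 and 0.73 ± 0.18 (SE) in the order given above, with adjusted p of 0.00357, 0.000714, 1.85e-06 and 0.000787, and the first of these calls was lost when nerves were paired by mouse (0.38, adjusted p = 0.102).

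Ndufa8, whose upstream window with the NRF1 letters is printed above and which faces the intermembrane space with its paired cysteine motifs, stood at 39.9, 42.3, 33.0, 37.0 and 47.8 CPM in healthy and 45.2, 60.9, 55.0, 52.9 and 58.4 CPM in injured Lepr-ctrl nerves at 2 wpc, and 37.9 to 45.0 with a median of 42.5 CPM against 52.5, 61.0, 70.6 and 50 CPM in Lepr-cKO nerves. The values at 4 wpc were 40.3, 34.2, 31.7, 36.8 and 38.2 CPM against 57.7, 64.2, 61.8 and 53.5 CPM in Lepr-ctrl mice, and 37.1, 35.8, 32.1, 42.3 and 40.3 CPM against 46.0, 58.1, 46.0 and 54.5 CPM in Lepr-cKO mice. Healthy and injured libraries overlapped in Lepr-ctrl mice at 2 wpc, through the injured nerve of mouse SLRKO2wpc123, and in no other comparison. The differences came to 0.45 ± 0.10, 0.47 ± 0.10, 0.71 ± 0.11 and 0.45 ± 0.11 on the log2 scale (SE), and the adjusted p to 0.000298, 0.000175, 8.46e-07 and 0.000734.

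The exception in this arm was Ndufa13, also known as GRIM-19, a membrane-anchored subunit needed for assembly. At 2 wpc it measured 139.7, 132.4, 118.3, 124.5 and 173.02 CPM in healthy and 68.5, 110.5, 85.8, 115.8 and 104.3 CPM in injured Lepr-ctrl nerves, and 122.2 to 160.8 with a median of 154.2 CPM against 103.9, 96.1, 76.3 and 89.7 CPM in Lepr-cKO nerves. All injured values lay below all healthy ones in both genotypes, and the log2 fold changes were -0.50 ± 0.12 (SE), adjusted p = 0.00054, and -0.69 ± 0.13 (SE), adjusted p = 1.7e-05. At 4 wpc healthy and injured values overlapped in both genotypes (123.3 to 147.2 against 86.0 to 126.04 CPM in Lepr-ctrl and 117.1 to 133.1 against 101.1 to 142.8 CPM in Lepr-cKO mice), with log2 fold changes of -0.26 ± 0.13 (SE), adjusted p = 0.0754, and -0.08 ± 0.13 (SE), adjusted p = 0.632. Without the Lepr-ctrl injured nerve of mouse WT-173 the first of these passed the threshold (-0.32, adjusted p = 0.0477), which made 2 members called lower in that comparison. Of the exon bases of Ndufa13, 30.0% are shared with another annotated gene, and the use of strand in counting is not stated, so its counts are uncertain to that extent.

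In the distal membrane arm 5 and 6 of 10 accessory subunits rose at 2 wpc in Lepr-ctrl and Lepr-cKO nerves (35.1% and 35.4% of all genes). In each, 1 fell (30.7% and 29.6%). At 4 wpc 9 and 7 rose (32.7% and 30.2%) and none fell (32.3% and 27.1%). The medians were 0.24 and 0.27 at 2 wpc and 0.70 and 0.47 at 4 wpc. Ndufb7, a subunit on the intermembrane side whose upstream window carries the ETS letters, measured 48.7, 49.5, 41.8, 42.1 and 55.9 CPM in healthy and 67.3, 70.1, 77.0, 89.6 and 68.8 CPM in injured Lepr-ctrl nerves at 2 wpc, and 40.8 to 54.9 with a median of 49.0 CPM against 74.3, 79.2, 52.2 and 82.2 CPM in Lepr-cKO nerves. Nerves taken at 4 wpc held 52.6, 44.3, 39.7, 47.0 and 47.1 CPM against 83.2, 98.7, 94.3 and 77.1 CPM in Lepr-ctrl mice, and 46.5, 45.8, 38.8, 59.1 and 49.1 CPM against 56.1, 97.03, 74.1 and 74.4 CPM in Lepr-cKO mice. The groups were apart in Lepr-ctrl mice at both times and overlapped in Lepr-cKO mice. Log2 fold changes were 0.65 ± 0.13, 0.57 ± 0.13, 0.94 ± 0.14 and 0.66 ± 0.14 (SE), with adjusted p of 4.37e-05, 0.000226, 2.98e-07 and 0.000109.

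For Ndufb5, a single-span accessory subunit, the counts came to 41.8, 34.6, 40.6, 38.4 and 40.9 CPM in healthy and 42.3, 53.5, 58.8, 52.2 and 53.9 CPM in injured Lepr-ctrl nerves at 2 wpc, and 37.5 to 41.3 with a median of 38.9 CPM against 59.2, 49.6, 49.1 and 56.3 CPM in Lepr-cKO nerves. In mice at 4 wpc it measured 33.4, 28.5, 31.4, 31.2 and 31.2 CPM against 58.1, 62.5, 62.8 and 51.2 CPM in Lepr-ctrl mice, and 32.3, 33.0, 31.5, 39.7 and 34.9 CPM against 39.3, 58.7, 50.6 and 55.8 CPM in Lepr-cKO mice. Lepr-cKO nerves at 4 wpc were the one comparison in which the groups overlapped. The log2 fold changes of 0.41 ± 0.09, 0.45 ± 0.09, 0.91 ± 0.10 and 0.58 ± 0.10 (SE) had adjusted p of 0.000223, 8.09e-05, 7.64e-10 and 6.89e-06, and 12.3% of its exon bases are shared with another gene.

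The X-linked Ndufb11, likewise a single-span subunit, measured 53.6, 50.6, 45.9, 47.1 and 57.6 CPM in healthy and 66.6, 69.4, 63.0, 68.6 and 72.1 CPM in injured Lepr-ctrl nerves at 2 wpc, and 45.7 to 56.7 with a median of 54.8 CPM against 64.7, 67.6, 63.4 and 66.5 CPM in Lepr-cKO nerves. The corresponding values at 4 wpc were 50.5, 44.0, 41.9, 45.4 and 48.3 CPM against 76.0, 78.7, 77.3 and 71.6 CPM in Lepr-ctrl mice, and 47.7, 45.4, 40.6, 52.1 and 48.9 CPM against 64.2, 65.0, 64.2 and 73.8 CPM in Lepr-cKO mice. No overlap was seen in any of the 4 comparisons. With 0.42 ± 0.07, 0.29 ± 0.07, 0.72 ± 0.08 and 0.51 ± 0.08 (SE) its log2 fold changes were moderate, but the spread was small and the adjusted p were 7.68e-06, 0.000925, 8.27e-10 and 1.26e-06. Another gene shares 12.9% of its exon bases.

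Ndufb3, a small accessory subunit of the same arm, stood at 27.8, 26.7, 23.7, 29.1 and 24.1 CPM in healthy and 24.6, 39.8, 37.0, 34.0 and 34.0 CPM in injured Lepr-ctrl nerves at 2 wpc, and 24.7 to 27.0 with a median of 25.2 CPM against 39.3, 38.7, 28.7 and 40.2 CPM in Lepr-cKO nerves. Nerves of 4 wpc had 26.1, 19.1, 18.3, 20.01 and 20.5 CPM against 34.97, 41.3, 40.4 and 28.7 CPM in Lepr-ctrl mice, and 21.2, 19.3, 20.9, 27.4 and 21.6 CPM against 27.0, 42.8, 40.7 and 36.5 CPM in Lepr-cKO mice. Groups overlapped in Lepr-ctrl mice at 2 wpc and in Lepr-cKO mice at 4 wpc. The log2 fold changes were 0.37 ± 0.13, 0.53 ± 0.13, 0.81 ± 0.14 and 0.73 ± 0.13 (SE), with adjusted p of 0.0121, 0.000548, 4.05e-06 and 2.28e-05. The first call was lost when nerves were paired by mouse (0.33, adjusted p = 0.0795) and without the Lepr-ctrl injured nerve of mouse SLRKO2wpc130 (0.27, adjusted p = 0.0743).

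Against this trend, Ndufb9, a subunit of the LYR family that binds the acyl carrier protein, fell at 2 wpc. Healthy Lepr-ctrl nerves held 61.9, 54.7, 49.2, 51.1 and 57.7 CPM and injured ones 32.01, 44.3, 38.1, 40.8 and 45.1 CPM, and in Lepr-cKO mice healthy nerves held 52.3 to 58.8 with a median of 55.8 CPM and injured ones 44.1, 36.1, 36.1 and 37.3 CPM. Injured values were below all healthy ones in both genotypes (-0.45 ± 0.09 (SE), adjusted p = 8.34e-05, and -0.54 ± 0.10 (SE), adjusted p = 1.3e-05). At 4 wpc the log2 fold changes were -0.06 ± 0.10 and -0.19 ± 0.10 (SE; adjusted p = 0.6 and 0.0952) and the groups overlapped. With the library of mouse SLRKO2wpc126 in the fit the Lepr-cKO call at 2 wpc was lost (-0.09, adjusted p = 0.661). Ndufb9 shares 19.5% of its exon bases with another gene. Ndufb4, Ndufb2, Ndufb6, Ndufb8 and Ndufb10 completed the arm, with log2 fold changes of 0.83, 0.35, 0.64, 0.26 and 0.67 in Lepr-ctrl nerves at 4 wpc, all called.

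Of the accessory subunits of the matrix arm, 3 of 9 rose and 3 fell in Lepr-ctrl nerves at 2 wpc. This is near the shares of all genes (35.1% and 30.7%). In Lepr-cKO nerves 2 rose and 3 fell (35.4% and 29.6% of all genes), and the medians were -0.01 and 0.05. At 4 wpc 7 and 4 of 9 rose (32.7% and 30.2%) and none fell (32.3% and 27.1%), with medians of 0.37 and 0.19. Ndufa2, which has a thioredoxin-like fold, rose throughout and measured 60.1, 58.5, 50, 52.0 and 68.3 CPM in healthy and 81.2, 93.7, 110.3, 118.3 and 86.3 CPM in injured Lepr-ctrl nerves at 2 wpc, and 50.8 to 63.5 with a median of 61.0 CPM against 98.1, 97.3, 65.3 and 122.0 CPM in Lepr-cKO nerves. In the later mice, at 4 wpc, it stood at 51.2, 39.4, 39.2, 48.3 and 50.7 CPM against 111.9, 126.7, 107.3 and 100.5 CPM in Lepr-ctrl mice, and 44.1, 43.6, 39.7, 66.0 and 47.9 CPM against 61.8, 118.7, 93.8 and 99.3 CPM in Lepr-cKO mice. Groups overlapped in Lepr-cKO mice at 4 wpc, through 1 injured nerve, that of mouse KO-169. With log2 fold changes of 0.76 ± 0.15, 0.69 ± 0.15, 1.29 ± 0.16 and 0.95 ± 0.16 (SE) and adjusted p of 4.43e-05, 0.000181, 1.7e-08 and 5.65e-06, it showed the second largest change of all members at 4 wpc, and 11.5% of its exon bases are shared with another gene.

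A second matrix-arm subunit called every time was Ndufa7, with 51.5, 48.6, 39.5, 43.8 and 58.8 CPM in healthy and 46.7, 66.2, 68.6, 76.0 and 65.9 CPM in injured Lepr-ctrl nerves at 2 wpc, and 44.0 to 55.0 with a median of 51.1 CPM against 62.9, 67.6, 54.5 and 68.4 CPM in Lepr-cKO nerves. For 4 wpc the values were 50.5, 42.3, 38.5, 47.4 and 46.5 CPM against 86.9, 89.2, 80.3 and 74.5 CPM in Lepr-ctrl mice, and 47.8, 43.8, 40.6, 52.6 and 46.6 CPM against 55.1, 77.3, 68.7 and 69.1 CPM in Lepr-cKO mice. At 2 wpc the groups overlapped in both genotypes and at 4 wpc in neither. The log2 fold changes were 0.42 ± 0.11, 0.33 ± 0.11, 0.88 ± 0.12 and 0.55 ± 0.12 (SE), with adjusted p of 0.00129, 0.0111, 6.81e-08 and 0.000173.

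Ndufa5, in contrast, fell at 2 wpc. This accessory subunit of the matrix arm measured 73.9, 64.8, 71.8, 69.9 and 69.0 CPM in healthy and 28.4, 50.2, 52.7, 49.6 and 44.8 CPM in injured Lepr-ctrl nerves, and 63.6 to 78.7 with a median of 67.4 CPM against 61.6, 49.6, 32.5 and 59.3 CPM in Lepr-cKO nerves. Both genotypes had every injured value below every healthy one, and the lowest came from mice SLRKO2wpc123 and SLRKO2wpc135. The log2 fold changes were -0.63 ± 0.15 (SE), adjusted p = 0.000339, and -0.43 ± 0.15 (SE), adjusted p = 0.012, and the second was lost without the injured nerve of mouse SLRKO2wpc135 (-0.27, adjusted p = 0.0999) and with the library of mouse SLRKO2wpc126 in the fit (-0.25, adjusted p = 0.163). At 4 wpc it stood at 57.9, 45.5, 45.8, 51.7 and 52.5 CPM in healthy and 57.2, 65.9, 59.7 and 48.6 CPM in injured Lepr-ctrl nerves, and at 55.4, 46.7, 45.3, 65.4 and 50.4 CPM against 36.3, 57.4, 59.1 and 47.9 CPM in Lepr-cKO nerves. These groups overlapped and neither difference was called (0.19 ± 0.16 (SE), adjusted p = 0.283, and -0.07 ± 0.16 (SE), adjusted p = 0.719). Healthy nerves themselves were lower at 4 wpc than at 2 wpc in Ndufa5, with 45.5 to 57.9 against 64.8 to 73.9 CPM in Lepr-ctrl mice.

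Ndufa9, which binds NADPH near the junction of the arms, fell by less at 2 wpc (-0.23 ± 0.10 (SE), adjusted p = 0.0445 in Lepr-ctrl, and -0.40 ± 0.10 (SE), adjusted p = 0.000925 in Lepr-cKO nerves) and was not called at 4 wpc (-0.15 and -0.08). The Lepr-ctrl call was lost when nerves were paired by mouse (-0.26, adjusted p = 0.0824) and in 11 of 18 alternatives in all, and the Lepr-cKO estimate changed sign with the library of mouse SLRKO2wpc126 (0.05, adjusted p = 0.822). Ndufs6, a zinc-binding subunit that joins late in assembly, was the one member called in both directions (1.1% of all genes were), although each of its calls was close to the threshold. It fell at 2 wpc (-0.27 ± 0.12 (SE), adjusted p = 0.0444, and -0.28 ± 0.12 (SE), adjusted p = 0.0417) and rose at 4 wpc in Lepr-ctrl nerves (0.32 ± 0.13 (SE), adjusted p = 0.0246), with 0.14 ± 0.13 (SE), adjusted p = 0.354, in Lepr-cKO nerves. In Lepr-ctrl mice its values were 27.5, 24.8, 22.4, 24.4 and 29.1 CPM in healthy and 13.4, 28.4, 22.1, 18.4 and 23.8 CPM in injured nerves at 2 wpc, and 26.9, 18.5, 19.5, 23.2 and 23.3 CPM against 27.8, 29.5, 28.1 and 26.2 CPM at 4 wpc, with overlap at both times. Both calls at 2 wpc were lost when nerves were paired by mouse (-0.31, adjusted p = 0.0788 in Lepr-ctrl, and -0.31, adjusted p = 0.0743 in Lepr-cKO nerves). Over all alternatives, its calls were lost in 10 of 18 (Lepr-ctrl) and 6 of 12 (Lepr-cKO) at 2 wpc and in 5 of 17 at 4 wpc, the first of these also without the injured nerve of mouse SLRKO2wpc123 (-0.17, adjusted p = 0.144).

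Of the 6 core subunits, 2 rose and 1 fell in either genotype at 2 wpc. Over all genes, 35.1% rose and 30.7% fell in Lepr-ctrl nerves, and 35.4% and 29.6% in Lepr-cKO nerves. At 4 wpc 3 rose and 1 fell in Lepr-ctrl nerves (32.7% and 32.3% of all genes). In Lepr-cKO nerves 3 rose and none fell (30.2% and 27.1%). The medians were 0.09 and -0.03 at 2 wpc and 0.21 and 0.17 at 4 wpc. Ndufs8, which carries iron-sulfur clusters close to the ubiquinone site, was the one core subunit called higher every time, at 37.1, 40.1, 31.5, 34.5 and 41.8 CPM in healthy and 44.0, 54.8, 45.4, 47.7 and 52.6 CPM in injured Lepr-ctrl nerves at 2 wpc, and 31.4 to 40.4 with a median of 38.3 CPM against 46.3, 45.7, 47.7 and 36.5 CPM in Lepr-cKO nerves. Libraries of 4 wpc gave 40.9, 33.2, 29.8, 37.7 and 38.4 CPM against 45.0, 54.5, 43.7 and 46.1 CPM in Lepr-ctrl mice, and 36.0, 35.1, 32.04, 33.0 and 37.0 CPM against 48.5, 40.4, 39.8 and 46.6 CPM in Lepr-cKO mice. The groups overlapped in Lepr-cKO mice at 2 wpc, through the injured nerve of mouse SLRKO2wpc138. Its log2 fold changes were 0.40 ± 0.10, 0.25 ± 0.10, 0.39 ± 0.10 and 0.34 ± 0.10 (SE), with adjusted p of 0.000476, 0.0274, 0.00117 and 0.00514. The second of these calls was lost when nerves were paired by mouse (0.23, adjusted p = 0.0991), with no expression filter (0.22, adjusted p = 0.112), with only the compared groups in the fit (0.24, adjusted p = 0.0594) and without the injured nerve of mouse SLRKO2wpc125 (0.17, adjusted p = 0.18), SLRKO2wpc128 (0.23, adjusted p = 0.0696) or SLRKO2wpc135 (0.20, adjusted p = 0.0952).

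Ndufv1, the subunit that binds NADH and the flavin and thus the entry point of electrons, went the other way. At 2 wpc it measured 88.2, 94.6, 74.3, 86.4 and 105.6 CPM in healthy and 74.8, 71.1, 62.7, 71.9 and 75.0 CPM in injured Lepr-ctrl nerves, and 76.9 to 100.1 with a median of 92.9 CPM against 59.3, 66.6, 69.3 and 56.4 CPM in Lepr-cKO nerves. At 4 wpc it was 98.6, 87.9, 86.6, 88.0 and 90.6 against 75.5, 71.6, 78.6 and 63.9 CPM in Lepr-ctrl nerves and 93.5, 87.5, 85.2, 85.9 and 92.3 against 89.5, 79.8, 82.7 and 81.9 CPM in Lepr-cKO nerves. Injured values were below all healthy ones in Lepr-cKO mice at 2 wpc and in Lepr-ctrl mice at 4 wpc, and the groups overlapped in the other two comparisons. The log2 fold changes were -0.34 ± 0.08 (SE), adjusted p = 0.000476, and -0.55 ± 0.08 (SE), adjusted p = 8.27e-07, at 2 wpc, and -0.32 ± 0.09 (SE), adjusted p = 0.0017, and -0.09 ± 0.09 (SE), adjusted p = 0.374, at 4 wpc. With the library of mouse SLRKO2wpc126 in the fit none of the 3 calls held (-0.35, -0.13 and -0.31, adjusted p = 0.0733, 0.478 and 0.139), and Ndufv1 measured 169.2 CPM in this library.

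Ndufs1, the largest subunit of the matrix arm, and Ndufs3, a core subunit at the base of this arm, showed no call in any comparison of injured with healthy nerves. Ndufs1 stood at 68.4, 61.5, 67.4, 69.4 and 57.7 CPM in healthy and 59.7, 62.9, 62.0, 59.6 and 64.5 CPM in injured Lepr-ctrl nerves at 2 wpc, and at 56.8 to 68.0 with a median of 61.6 CPM against 69.2, 61.3, 59.7 and 62.6 CPM in Lepr-cKO nerves. At 4 wpc the values were 62.4, 58.1, 64.5, 51.7 and 56.5 against 53.0, 61.0, 55.8 and 53.0 CPM, and 63.7, 53.6, 56.4, 54.3 and 58.3 against 62.7, 62.7, 59.6 and 45.2 CPM. Groups overlapped throughout, and the log2 fold changes were -0.07 ± 0.08, 0.02 ± 0.08, -0.07 ± 0.09 and 0.01 ± 0.08 (SE), with adjusted p of 0.432, 0.819, 0.465 and 0.942. Those of Ndufs3 were 0.05 ± 0.08, -0.09 ± 0.08, 0.03 ± 0.08 and -0.01 ± 0.08 (SE; adjusted p 0.556, 0.327, 0.719 and 0.905). Ndufv2, the iron-sulfur partner of Ndufv1, was called higher in Lepr-cKO nerves at 2 wpc and in both genotypes at 4 wpc (0.30, 0.39 and 0.38), and Ndufs7, which holds the last cluster before ubiquinone, in Lepr-ctrl nerves at 2 wpc and in both genotypes at 4 wpc (0.25, 0.44 and 0.33). The acyl carrier protein Ndufab1 rose in 3 comparisons and was not called in Lepr-ctrl nerves at 4 wpc (0.12 ± 0.12 (SE), adjusted p = 0.397). Pairing nerves by mouse ended the call of Ndufv2 in Lepr-cKO nerves at 2 wpc (0.22, adjusted p = 0.182) and those of Ndufab1 in Lepr-ctrl nerves at 2 wpc (0.19, adjusted p = 0.144) and in Lepr-cKO nerves at 4 wpc (0.24, adjusted p = 0.0806). The call of Ndufs7 at 2 wpc did not hold by DESeq2 (0.24, adjusted p = 0.0546) and was lost in 13 of 18 alternatives.

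**Figure D2:**
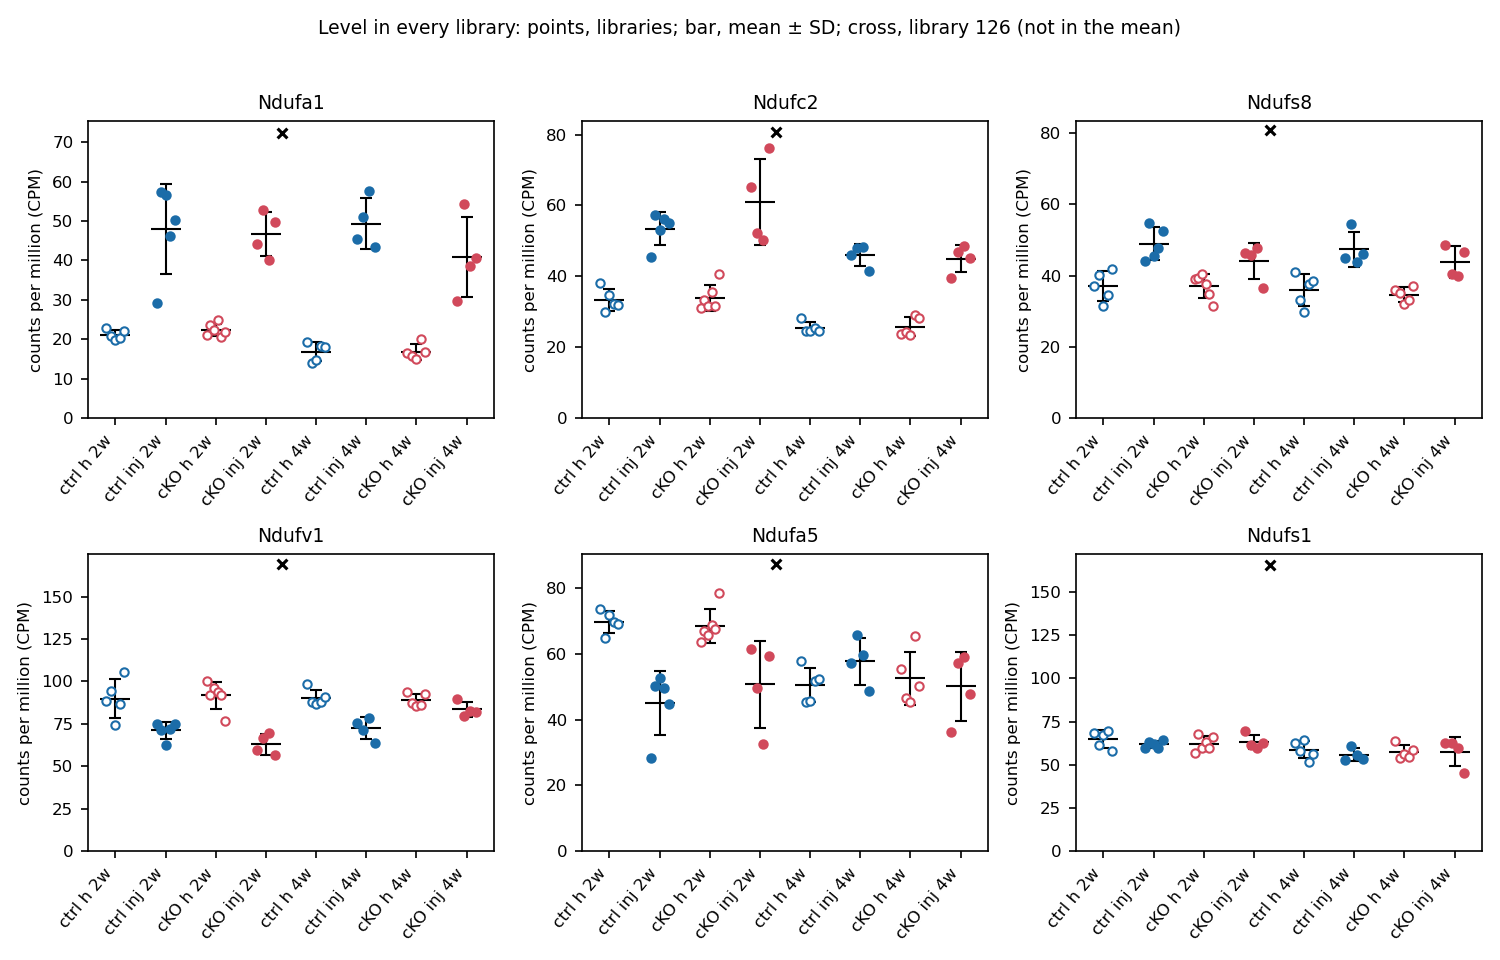
CPM per library (y axis) of Ndufa1, Ndufc2, Ndufs8, Ndufv1, Ndufa5 and Ndufs1 in the 8 groups (x axis), open for healthy and filled for injured nerves, blue for Lepr-ctrl and red for Lepr-cKO, with bars for mean ± SD and a cross for the library of mouse SLRKO2wpc126, which is left out of the means. Injured Ndufa1 values lie above the healthy ones in every pair of groups, Ndufv1 lies lower in injured nerves, and Ndufs1 overlaps throughout.

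Because both nerves came from the same animal, the change was also read within each of the 16 mice that had both nerves in the fit, as log2 CPM in the injured minus the healthy nerve. The nerves of a mouse also differ in body side, surgery and library. Injured libraries of Lepr-ctrl mice at 4 wpc totalled 10905806 to 17640587 counts against 23380164 to 43521795 in healthy ones. In Lepr-cKO mice at 4 wpc the totals overlapped (15071347 to 25923752 against 22717084 to 42143173). The part of depth was not tested. Ndufv1 was lower in the injured nerve of 16 of 16 mice (-0.75 to -0.04, median -0.25). Ndufa1 (0.48 to 1.79), Ndufc2 (0.50 to 1.07), Ndufa2, Ndufa8, Ndufb5, Ndufb7, Ndufb11 and Ndufs8, 8 members in all, were higher in 16 of 16. Over all genes tested, 18.5% were higher and 20.2% lower in the injured nerve of every mouse, so 8 and 1 of 35 members are near and below these shares. The other members that fell at 2 wpc were higher in the injured nerve of 5 (Ndufa5), 2 (Ndufa13), 3 (Ndufa9), 3 (Ndufb9) and, for Ndufs6, which rose at 4 wpc in Lepr-ctrl nerves, 9 of the 16 mice. Mice SLRKO2wpc123 and SLRKO2wpc135, both at 2 wpc, stood apart with 13 and 16 of 35 members higher in the injured nerve, where the other mice had 23 to 32.

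**Figure D3:**
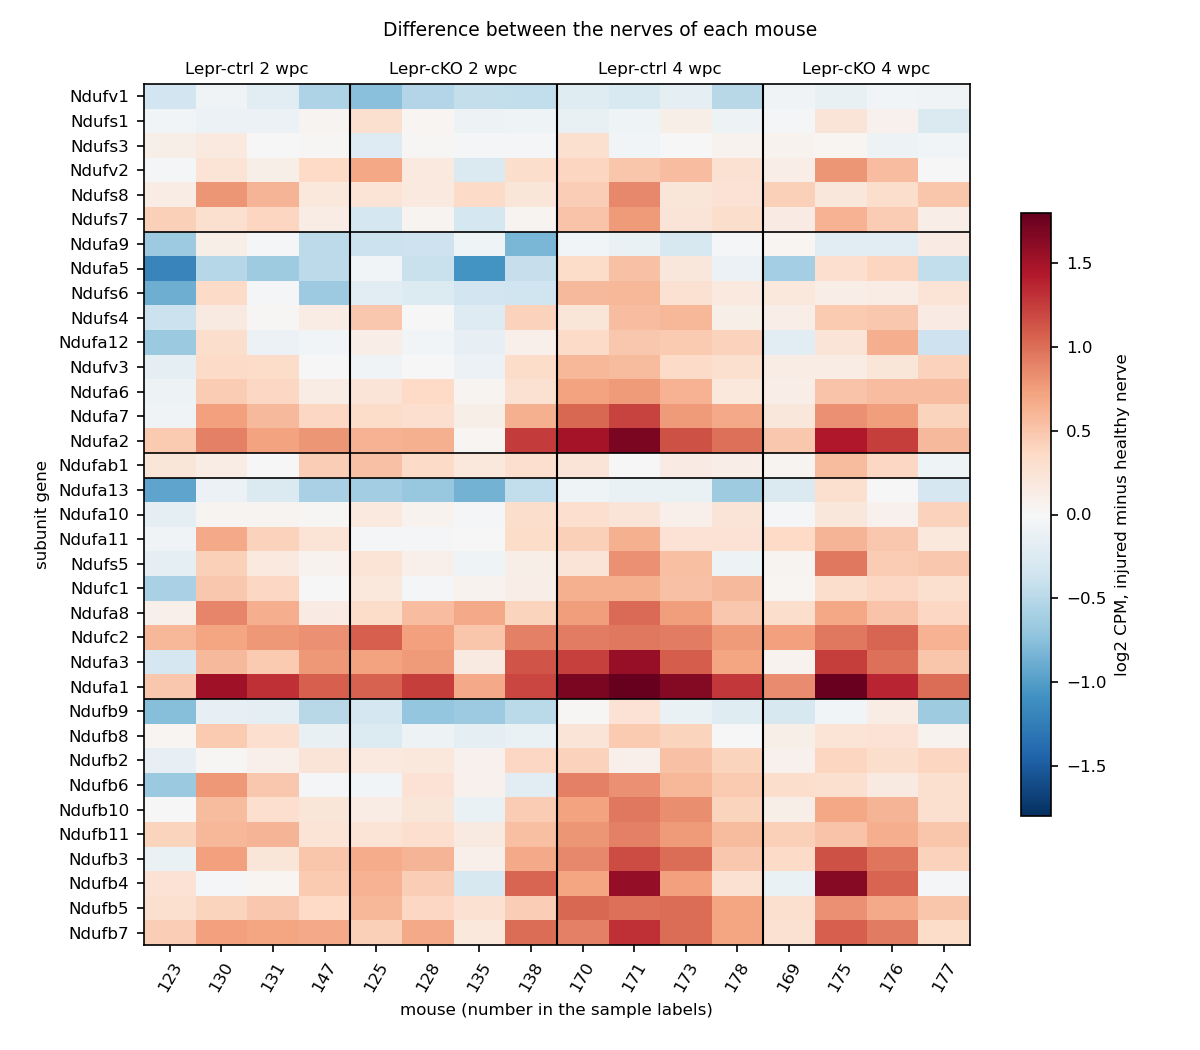
Difference in log2 CPM between the injured and the healthy nerve (colour) of each of 16 mice (columns, by genotype and time) for each member (rows). The Ndufa1 row is positive in every mouse, the Ndufv1 row is negative in every mouse, and the columns of mice SLRKO2wpc123 and SLRKO2wpc135 hold more negative values than the others.

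The opposite course of members changed their proportions within libraries. Per count of Ndufv1 there were 0.158 to 0.282 counts of Ndufa1 in the 21 healthy libraries (median 0.211) and 0.333 to 0.901 in the 17 injured ones (median 0.68), with no overlap. Both members were picked for their opposite changes in these same libraries, so this gap follows from the choice and is no separate evidence. Within the flavoprotein part of the matrix arm, the counts of Ndufv1 per count of Ndufv2 were 0.635 to 1.13 (median 0.929) in healthy and 0.346 to 0.928 (median 0.604) in injured libraries. Such ratios do not depend on the scaling between libraries, and they show unequal change, not which of the genes moved.

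Members also varied together among libraries of one group. Around the group means of log2 CPM, the median correlation over 595 pairs of members in 38 libraries was 0.397 (range -0.576 to 0.924), with 84.2% of pairs above 0, and libraries share depth and makeup, so this is a description. Ndufa7 (r = 0.904 with the mean of the others), Ndufa1 (0.873) and Ndufb3 (0.86) followed the rest most closely, and Ndufa9 (-0.102), Ndufs1 (0.04) and Ndufv1 (0.076) least. Transcript length ran along with the changes as well. Across the 35 members, Spearman's rho between principal transcript length and log2 fold change was -0.503 and -0.271 at 2 wpc and -0.575 and -0.526 at 4 wpc in Lepr-ctrl and Lepr-cKO nerves. The 12 members under 700 bases had medians of 0.35, 0.27, 0.75 and 0.54 and the 23 longer ones of 0.13, 0.15, 0.37 and 0.28. With the length of all exons instead, rho was -0.292, -0.175, -0.411 and -0.376 over the members and -0.163, -0.141, -0.184 and -0.203 over 18385 genes. The 1444 genes with under 1000 exon bases had medians of 0.48, 0.47, 0.46 and 0.45. The part of length in the changes of the members was not tested.

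How did the response to injury differ between 4 and 2 wpc? Compared as a difference of differences, 31 of 35 members in Lepr-ctrl mice had a more positive change at 4 wpc (88.6% against 48.9% of all genes), with a median of 0.29, and 3 were called higher (4.4% of all genes) and none lower (6.22%, none at an unadjusted p under 0.05, where 14.4% of all genes were lower, and none by DESeq2). These were Ndufa5 (0.82 ± 0.21 (SE), adjusted p = 0.0113), Ndufb5 (0.50 ± 0.13 (SE), adjusted p = 0.0129) and Ndufs6 (0.60 ± 0.17 (SE), adjusted p = 0.0234). For Ndufs6 the call was lost without the Lepr-ctrl injured nerve of mouse WT-171 at 4 wpc (0.57, adjusted p = 0.0535), which left 2. The number of calls in Lepr-ctrl mice was 7 without the healthy nerve of mouse WT-168 or SLRKO2wpc130 or the injured nerve of mouse SLRKO2wpc131, 8 without the injured nerve of mouse SLRKO2wpc130, and 5 without the injured nerve of mouse WT-178, SLRKO2wpc144 or SLRKO2wpc147. DESeq2 called 7. In Lepr-cKO mice 31 of 35 members again had a more positive change at 4 wpc (49.6% of all genes; median 0.21), and 1 was called higher (2.36% of all genes) and none lower (1.03%, none at an unadjusted p under 0.05, where 8.1% of all genes were lower, and none by DESeq2). This was Ndufv1 (0.46 ± 0.12 (SE), adjusted p = 0.0256), whose call was lost without the injured nerve of mouse SLRKO2wpc138 (0.41, adjusted p = 0.0597), while 2 members were called without the injured nerve of mouse SLRKO2wpc125 or KO-177 and 3 without that of mouse KO-169. Ndufa13 came next (0.61 ± 0.18 (SE), adjusted p = 0.051). The 4 called members were, apart from Ndufb5, ones whose level had fallen at 2 wpc. Healthy and injured nerves both enter this difference, and the libraries of the 2 times came from different mice. With both genotypes together, the median member sum in healthy nerves was 1637 CPM at 2 wpc and 1450 CPM at 4 wpc. In injured nerves it was 1847 and 1867 CPM. A more positive change at 4 wpc therefore need not mean a higher level in injured nerves.

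**Figure D4:**
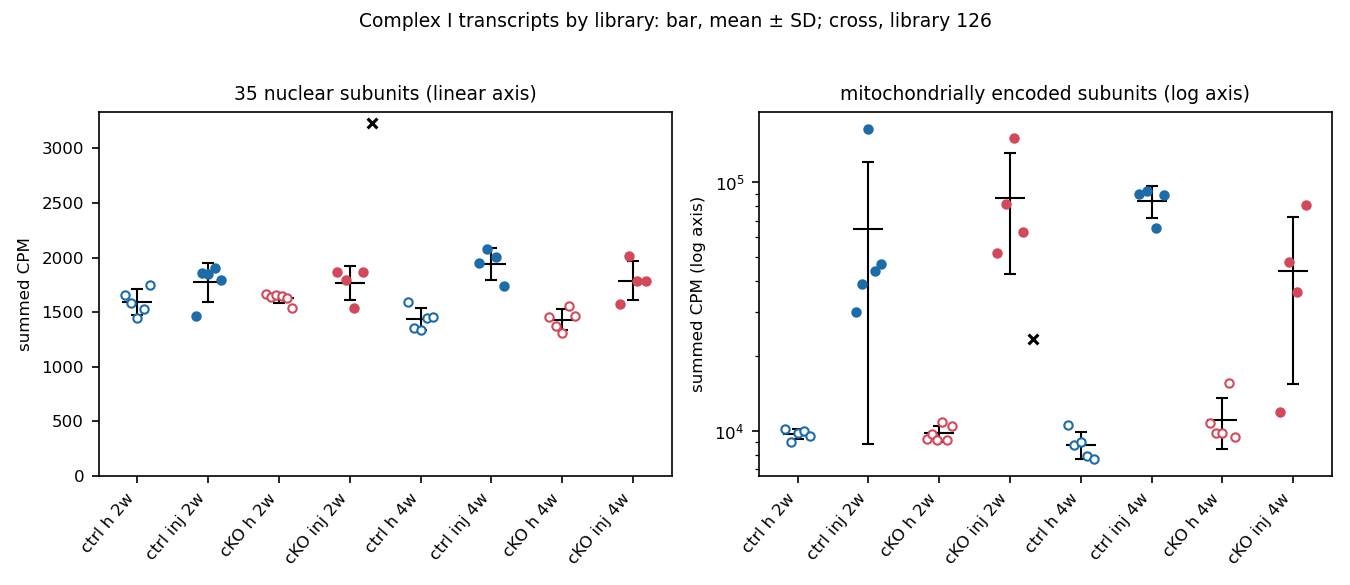
Summed CPM per library in the 8 groups (x axis) of the 35 nuclear members (linear y axis) and of the mitochondrially encoded subunits (log y axis), with bars for mean ± SD and a cross for the library of mouse SLRKO2wpc126. The nuclear sum overlaps between healthy and injured nerves at 2 wpc, whereas the mitochondrially encoded sum differs by far more in most pairs of groups. In Lepr-cKO nerves at 4 wpc the mitochondrially encoded sum overlaps (15526 CPM in the healthy nerve of mouse KO-177, 11853 CPM in the injured nerve of mouse KO-169).

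Summed over the 35 members, healthy nerves held 1450 to 1751 CPM and injured nerves 1464 to 1904 CPM at 2 wpc, and 1309 to 1595 against 1572 to 2082 CPM at 4 wpc. The complex as a whole is also built from mitochondrially encoded subunits, of which 5 of 7 could be tested (mt-Nd3 and mt-Nd4l were at or near 0 counts). All 5 rose in all 4 comparisons, with medians of 2.71, 3.06, 3.29 and 2.04 on the log2 scale, where the nuclear members had 0.19, 0.17, 0.39 and 0.33. Of 17 assembly factors, which put the complex together without being part of it, 5 and 5 rose and 4 and 2 fell at 2 wpc, and 7 and 6 rose and 2 and 1 fell at 4 wpc. Of 39 nuclear subunits of complexes II to V, 21 and 19 rose and 5 and 5 fell at 2 wpc, and 28 and 27 rose and 4 and 4 fell at 4 wpc, with medians of 0.36, 0.23, 0.63 and 0.49. For these counts of calls, the shares of all genes at 2 wpc were 35.1% and 35.4% higher and 30.7% and 29.6% lower. At 4 wpc they were 32.7% and 30.2% higher and 32.3% and 27.1% lower.

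Did the loss of exon 1 of Lepr in Schwann cells alter the subunits? No member was called between genotypes in injured nerves at 2 wpc (0.00544% of all genes were called higher and 0% lower) or at 4 wpc (1.23% higher and 0.56% lower), nor in healthy nerves at 2 wpc (0.0109% and 0%) or 4 wpc (0.00544% and 0%), by edgeR or by DESeq2. At an unadjusted p under 0.05 there were 0 members higher and 2 lower in injured Lepr-cKO nerves at 2 wpc (2.36% and 2.74% of all genes), 1 higher and 7 lower at 4 wpc (12.2% and 8.95%), and 0 in healthy nerves at 2 wpc (1.01% and 0.359%) or 4 wpc (1.28% and 0.815%). In the difference of the response to injury between genotypes no member was called at either time, and 0 of all genes were called by edgeR (0% in each direction). At an unadjusted p under 0.05, none were higher and 2 lower in this difference at 2 wpc (1.74% and 2.47% of all genes) and none higher and 1 lower at 4 wpc (7.33% and 4.5%). The estimates ± 2 SE of the members spanned -0.46 to 0.78 in injured nerves at 2 wpc, -0.71 to 0.58 in injured nerves at 4 wpc, -0.52 to 0.40 in healthy nerves at 2 wpc and -0.41 to 0.50 in healthy nerves at 4 wpc, so that changes of these sizes are not excluded for single members. For the difference in response, the spans were -0.73 to 1.04 at 2 wpc and -0.89 to 0.59 at 4 wpc.

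**Figure D5:**
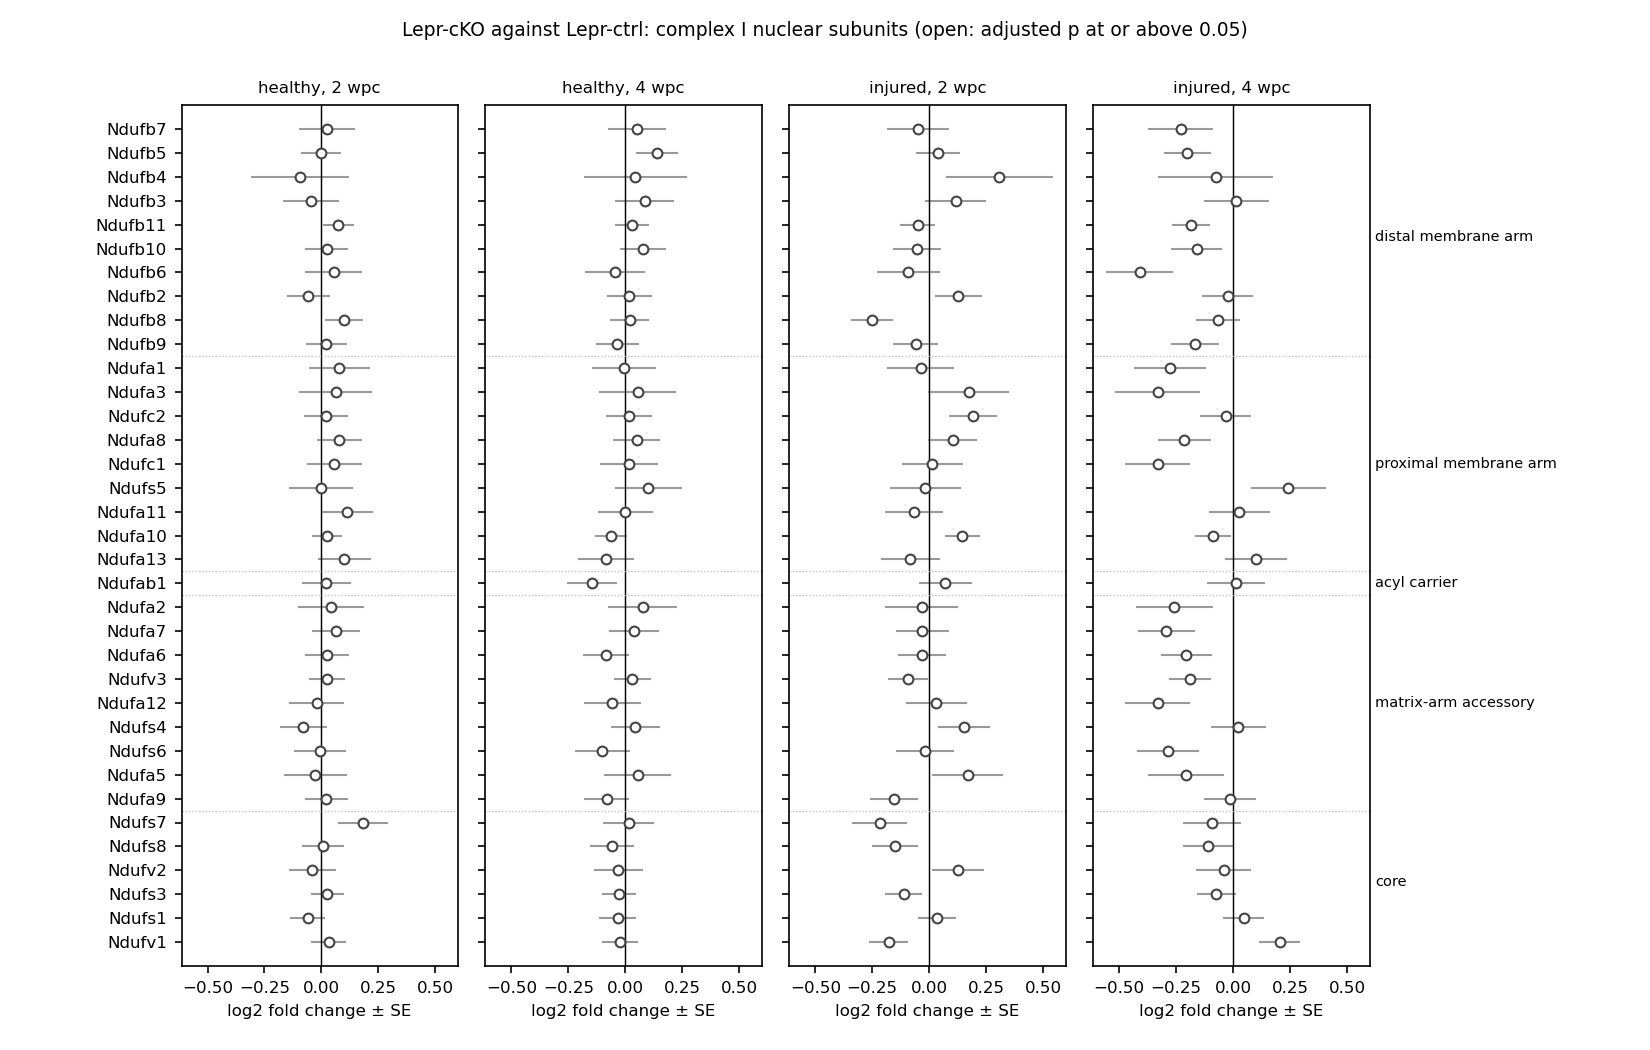
Log2 fold change of each member in Lepr-cKO against Lepr-ctrl nerves (x axis, with SE bars), for injured and healthy nerves at 2 and 4 wpc, grouped by position in the complex. No point is marked as called, and in injured nerves at 4 wpc 8 of 35 members lie right of 0.

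The lowest unadjusted p in injured nerves at 2 wpc belonged to Ndufb8, an accessory subunit of the distal arm, with 49.2, 57.6, 54.7, 51.3 and 53.0 CPM in Lepr-ctrl and 44.2, 50.7, 43.2 and 40.4 CPM in Lepr-cKO mice, overlapping groups (-0.25 ± 0.09, SE, unadjusted p = 0.00929, adjusted p = 0.942). Ndufv1 followed with 74.8, 71.1, 62.7, 71.9 and 75.0 against 59.3, 66.6, 69.3 and 56.4 CPM (-0.18 ± 0.09, unadjusted p = 0.0466, adjusted p = 0.942). Both estimates changed sign when the library of mouse SLRKO2wpc126 was added. Ndufb8 was also first in the difference of responses at 2 wpc (-0.35 ± 0.12, adjusted p = 0.962), before Ndufs7 (-0.40 ± 0.16, adjusted p = 0.962). Ndufs7 measured 55.4, 51.5, 48.5, 44.3 and 70.7 CPM in healthy and 69.2, 59.3, 58.2, 77.7 and 57.9 CPM in injured Lepr-ctrl nerves, and 48.8 to 70.7 with a median of 62.2 CPM against 56.8, 65.8, 48.5 and 50.6 CPM in Lepr-cKO nerves. The 2 genes also came first in healthy nerves at 2 wpc, where neither was called (0.18 ± 0.11 for Ndufs7 and 0.10 ± 0.08 for Ndufb8, adjusted p = 1 for both).

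At 4 wpc, injured Lepr-cKO nerves had a median difference of -0.11 over the members against 0.02 over all genes, and 8 of 35 members (22.9%, against 52.4% of all genes) had a positive estimate. Ndufb6, a distal-arm subunit that shares 39% of its exon bases with another gene, measured 25.9, 25.7, 24.2 and 21.7 CPM in Lepr-ctrl and 19.1, 18.4, 16.1 and 19.8 CPM in Lepr-cKO mice (-0.41 ± 0.15, SE, unadjusted p = 0.00889, adjusted p = 0.107). With Ndufc1 and Ndufs6 it was one of 3 members whose Lepr-cKO values lay below all Lepr-ctrl values (2.8% of all genes), while Ndufv1 was the 1 member with all values above (89.5, 79.8, 82.7 and 81.9 against 75.5, 71.6, 78.6 and 63.9 CPM, 0.20 ± 0.09, adjusted p = 0.187; 2.9% of all genes). Ndufa7 was second by p, with 86.9, 89.2, 80.3 and 74.5 CPM in Lepr-ctrl and 55.1, 77.3, 68.7 and 69.1 CPM in Lepr-cKO mice (-0.29 ± 0.12, adjusted p = 0.167). The lowest Ndufa7 value was that of mouse KO-169, whose injured library also had the highest myelin sum (73820 CPM), the lowest mitochondrially encoded share (2.95%) and the lowest member sum (1572 CPM) among injured nerves at 4 wpc. With 1 library left out at a time the median over the members ran from -0.21, without the injured nerve of mouse WT-178, to -0.08, without that of mouse KO-169, and no member was called. In the difference of responses Ndufb5 (-0.34 ± 0.14, adjusted p = 0.368) and Ndufa7 (-0.33 ± 0.17, adjusted p = 0.429) came first. Among healthy nerves at 4 wpc the first were Ndufb5 (0.14 ± 0.09) and Ndufab1 (-0.15 ± 0.11, both with an adjusted p of 1), with 21.2, 19.9, 22.2, 19.99 and 19.1 CPM of Ndufab1 in Lepr-ctrl and 18.6, 18.5, 19.1, 19.0 and 17.3 CPM in Lepr-cKO mice.

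The other genes of the pathway showed no call between genotypes in injured nerves at 4 wpc either. All 5 mitochondrially encoded subunits tested were lower in Lepr-cKO nerves by estimate (median -0.93) and at an unadjusted p under 0.05, and none passed the adjustment over all genes. None of the 17 assembly factors and none of the 39 subunits of complexes II to V was called, with medians of -0.03 and -0.20.

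The library of mouse SLRKO2wpc126 shows what the members look like with muscle RNA present. Its summed member level was 3236 CPM, and 30 of 35 members were above all other 38 libraries. Relative to the mean of the other 4 injured Lepr-cKO libraries at 2 wpc, members stood between 1.09-fold (Ndufb4) and 2.88-fold (Ndufa9), with a median of 1.78. Ndufv1, which fell in injured nerves, and Ndufs1, which was not called, were among those furthest up, with 2.69-fold for Ndufv1 and 2.62-fold for Ndufs1, whereas Ndufa3 stood at 1.2-fold.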

How the data were processed

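Per the labels and the study's methods, libraries were made from endoneurial RNA with an mRNA kit (TruSeq RNA v2), sequenced as single 50-base reads, aligned by the authors with STAR to GRCm38 and counted per gene with featureCounts. The submitters' processing notes name bcl2fastq 2.20.0.422, STAR 2.5 and featureCounts 1.5.0-p1. The deposited values are raw read counts for 55573 genes in 39 libraries, neither normalized nor filtered. Whether strand was used, and how reads with several alignments were counted, is not given in the sources used here. The authors used DESeq2 with an absolute log2 fold change above 1.

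Groups came from the sample titles. Gene symbols came from GENCODE M21, on the same build, which named 99.8% of genes. Counts were tested in R 4.3.3 with edgeR 4.0.16 (TMM scaling, the quasi-likelihood test, and Benjamini-Hochberg adjusted p over the 18394 genes that passed a filter by group on 10 counts and on 15 in total) in 1 fit of 8 groups and 38 libraries, with a call at an adjusted p under 0.05. CPM used TMM factors, and log2 CPM a prior count of 2. The fit was tested on simulated data. Totals ran from 10905806 to 45016322 counts, so low counts limit precision most in Ndufb4, which had the lowest count, 50. No replicate pair had identical values (chi-square per degree of freedom at least 6.90).

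The mouse numbers in the titles tie both nerves of a mouse, which pairs the samples. Over all genes the deviations of paired nerves from their group means had correlations of -0.064 to 0.297 (median 0.121), above 0.1 in 11 of 16 mice. Nerves of different mice are separate animals. The main fit did not use the pairing, so its p-values measure the spread of libraries within groups. For injury they do not measure the spread of the change within mice, which the replicate block by mouse takes up. Comparisons of one genotype and time share their healthy or injured libraries with others. Alternatives were DESeq2 1.42.0, its size factors, other filters, all 39 libraries, the fold condition, fewer groups, the replicate block by mouse and leaving out each library of groups of 5 or fewer.

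The members and lists were chosen with earlier results of these data known, and the list of complexes II to V was added after the designs had been written. Values per library are given for Ndufv1 and Ndufs1, for members called in the same direction in all 4 injury comparisons, for the largest called rise and fall in each, and for the 2 members with the lowest unadjusted p in every other comparison. Per-library values of Ndufb9 and Ndufs6 were added after their values were seen. Lists are described by counts, with no test of the list.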

Additional observations from a re-analysis of the deposited data

Results flagged for a closer look

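In 10 sets of values, out of those of the named and the summed members in each group of 4 to 6 libraries, there was 1 library farther from the rest than Dixon's 95% limit allows, where chance at about 1 in 20 would give 8.4. In healthy nerves of Lepr-ctrl mice at 4 wpc, mouse WT-168 had 26.1 CPM of Ndufb3 (others 18.3 to 20.5) and 28.2 CPM of Ndufc2 (others 24.4 to 25.4). The healthy nerve of Lepr-cKO mouse KO-177 at 4 wpc had 27.4 CPM of Ndufb3 (others 19.3 to 21.6), and its injured nerve 73.8 CPM of Ndufb11 (others 64.2 to 65). At 2 wpc, the healthy nerve of Lepr-cKO mouse SLRKO2wpc138 was apart in Ndufa5 (78.7 CPM, others 63.6 to 68.8), Ndufb11 (45.7 CPM, others 53.6 to 56.7), Ndufv1 (76.9 CPM, others 91.9 to 100) and the member sum (1537 CPM, others 1627 to 1663). The injured nerve of Lepr-cKO mouse SLRKO2wpc135 had 28.7 CPM of Ndufb3 (others 38.7 to 40.2). The injured nerve of Lepr-ctrl mouse SLRKO2wpc123 had a member sum of 1464 CPM (others 1798 to 1904).

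The response to injury differed between 4 and 2 wpc by the interaction term for Ndufa5 (0.82), Ndufb5 (0.50) and Ndufs6 (0.60) in Lepr-ctrl mice and for Ndufv1 (0.46) in Lepr-cKO mice. In the library of mouse SLRKO2wpc126, which entered no comparison, the members summed to 3235.6 CPM, above every other library.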

How the results depend on the processing

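Counts of called members kept within 1.5 times of the reported ones under most alternatives, and calls between genotypes stayed at 0 in all of them. For the difference between 4 and 2 wpc in Lepr-ctrl mice, 3 members were called higher, against 7 with DESeq2 (13.7% of all genes called in either direction), 7 with DESeq2 size factors (10.9%), 7 with at least 10 counts in every library (15.2%), 1 with no filter (3.64%), 1 with all 39 libraries (9.1%) and 0 with the fold condition. For the same difference in Lepr-cKO mice the reported 1 became 2 with DESeq2 (5.93% of all genes called in either direction), its size factors (3.51%), the stricter filter (5.09%) or without mitochondrially encoded genes (3.4%), 3 with the compared groups only (3.35%), and 0 with no filter (1.14%), all 39 libraries (2.09%) or the fold condition. All 39 libraries left 3 (Lepr-ctrl, 2 wpc), 1 (Lepr-cKO, 2 wpc) and 0 (Lepr-ctrl, 4 wpc) members called lower after injury, with 63.9%, 65.1% and 63.6% of all genes called in either direction. The fold condition left 1, 1, 3 and 1 members called higher and 0 lower, with the shares of all genes given above. Among uncalled members, Ndufs1 changed sign with no filter in Lepr-cKO nerves at 2 wpc (-0.0015) and 4 wpc (-0.0182) and without 1 library (-0.0743 to 0.0479 at 2 wpc, -0.0564 to 0.1062 at 4 wpc), Ndufa5 in Lepr-cKO nerves at 4 wpc (-0.1595 to 0.0374 over the libraries left out, above 0 without mouse KO-177 or KO-169), and, between genotypes in injured nerves at 2 wpc with all 39 libraries, Ndufb8 (0.0904) and Ndufv1 (0.2445). Leaving out 1 library gave 11 to 18 and 10 to 18 members higher and 4 to 6 lower at 2 wpc (Lepr-ctrl, Lepr-cKO), 21 to 27 and 15 to 21 higher at 4 wpc, 1 to 2 lower in Lepr-ctrl nerves at 4 wpc (2 without the injured nerve of mouse WT-173), and 2 to 8 and 0 to 3 for the time difference. Shares of all genes are not given for the fits that left out 1 library. With the replicate block by mouse, 11 and 11 members were higher and 4 and 5 lower at 2 wpc, and 27 and 18 higher and 1 and 0 lower at 4 wpc. That fit called 60.7% and 61% of all genes in either direction at 2 wpc and 63.8% and 54.9% at 4 wpc. The pairing ended the calls of Ndufa3, Ndufa6, Ndufa9, Ndufab1, Ndufb3, Ndufb10 and Ndufs6 in Lepr-ctrl and of Ndufb2, Ndufb4, Ndufs6, Ndufs8 and Ndufv2 in Lepr-cKO nerves at 2 wpc, and of Ndufab1, Ndufb4 and Ndufs4 in Lepr-cKO nerves at 4 wpc. It added Ndufa11 in Lepr-ctrl nerves at 2 wpc and changed no other member's call after injury. The causes were not tested. Depth limits Ndufb4 most.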
